A study of Mus musculus with 12 samples.

Results

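The sex difference of the wild-type mouse liver was described from the 6 wild-type arrays of a series of 12, 3 from females (XX) and 3 from males (XY). The arrays were chosen by their wild-type label and split by the Y-linked gene Eif2s3y, with a log2 value under 6 taken as XX. Eif2s3y read 3.71, 3.06 and 3.49 in the females and 9.56, 9.71 and 9.77 in the males, so all 6 sex labels and the split gave the same groups. The wild-type mice carried 2 intact somatostatin alleles (sst +/+), were of the C57BL/6 background and were killed at 16 weeks of age, 3 mice of each sex with 1 array each. The other 6 arrays came from age-matched somatostatin knockout mice (sst -/-) of both sexes, 3 of each. They entered the fit as 2 further groups and are compared only where stated. The series asks how loss of somatostatin, a peptide that restrains growth hormone release, alters sex-dependent liver genes. The animals and the RNA carry no other treatment in the labels, and no batch is recorded there.

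In rodents the pituitary releases growth hormone in separated pulses in males and more continuously in females. In hepatocytes the hormone acts through its receptor, the kinase JAK2 and the transcription factor STAT5B, and the temporal pattern of the signal is known to set the sex bias of many liver genes. The best known of these encode cytochromes P450 and conjugating enzymes that clear steroids and drugs, uptake and efflux carriers of the hepatocyte membrane, and secreted proteins such as the major urinary proteins. X- and Y-linked genes are left out of all that follows.

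The values were the deposited RMA summaries, a log2 measure of probe set brightness, and the array medians lay between 4.94 and 4.97. Each difference is female minus male in log2 units, with limma's standard error and n = 3 mice per sex, and a gene counts as past the threshold at a Benjamini-Hochberg adjusted p under 0.05. Where the dimmer sex averaged below the array median, its signal was not separable from background, and the difference is given as a lower bound ("at least"). The 3′ minus 5′ signal of the Gapdh control was 0.95 and 0.46 in females 1 and 2 against −0.09 to 0.11 in the other 4 wild-type arrays, and that of beta-actin was 2.59 and 1.92 against 0.97 to 1.43. The clock gene Per2 read 8.71, 5.56 and 8.54 in the females and 8.23, 8.64 and 5.63 in the males, so female 2 and male 3 stood apart from their groups. The genes that lost their call with these measures as covariates are named after the comparisons.

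Of 11778 autosomal genes tested, 235 (2.0%) passed, 158 (1.34%) higher and 77 (0.654%) lower in females. When each array was centred on the median of its tested genes, the counts were 123 higher and 100 lower. The 3 female and 3 male arrays did not overlap for 1927 of all tested genes (16.4%) and for all 235 genes past the threshold. At least 2-fold differences were found for 111 of them (0.942% of the genes tested), 74 higher and 37 lower. At least 16-fold differences were reached by 10 genes higher and 6 genes lower in females. The median difference was 0.95 among the higher and −0.98 among the lower genes, and the median within-sex SD was 0.20 in each sex.

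Genes of metabolism, transport and secretion made up 62 of the 235 genes, and 173 lay outside these lists. Among 355 metabolic genes tested, 15 were higher and 18 lower in females (9.30%). Among 284 transport genes 14 were higher and 4 lower (6.34%), and among 147 secretory genes 5 were higher and 6 lower (7.48%). The median difference of each role was between 0.03 and 0.07, beside 0.02 over all autosomal genes tested. Most members of these lists did not pass. The counts given below for each list stand beside 2.0% of all autosomal genes past the threshold and 14.6% at an unadjusted p under 0.05.

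**Figure D1:**
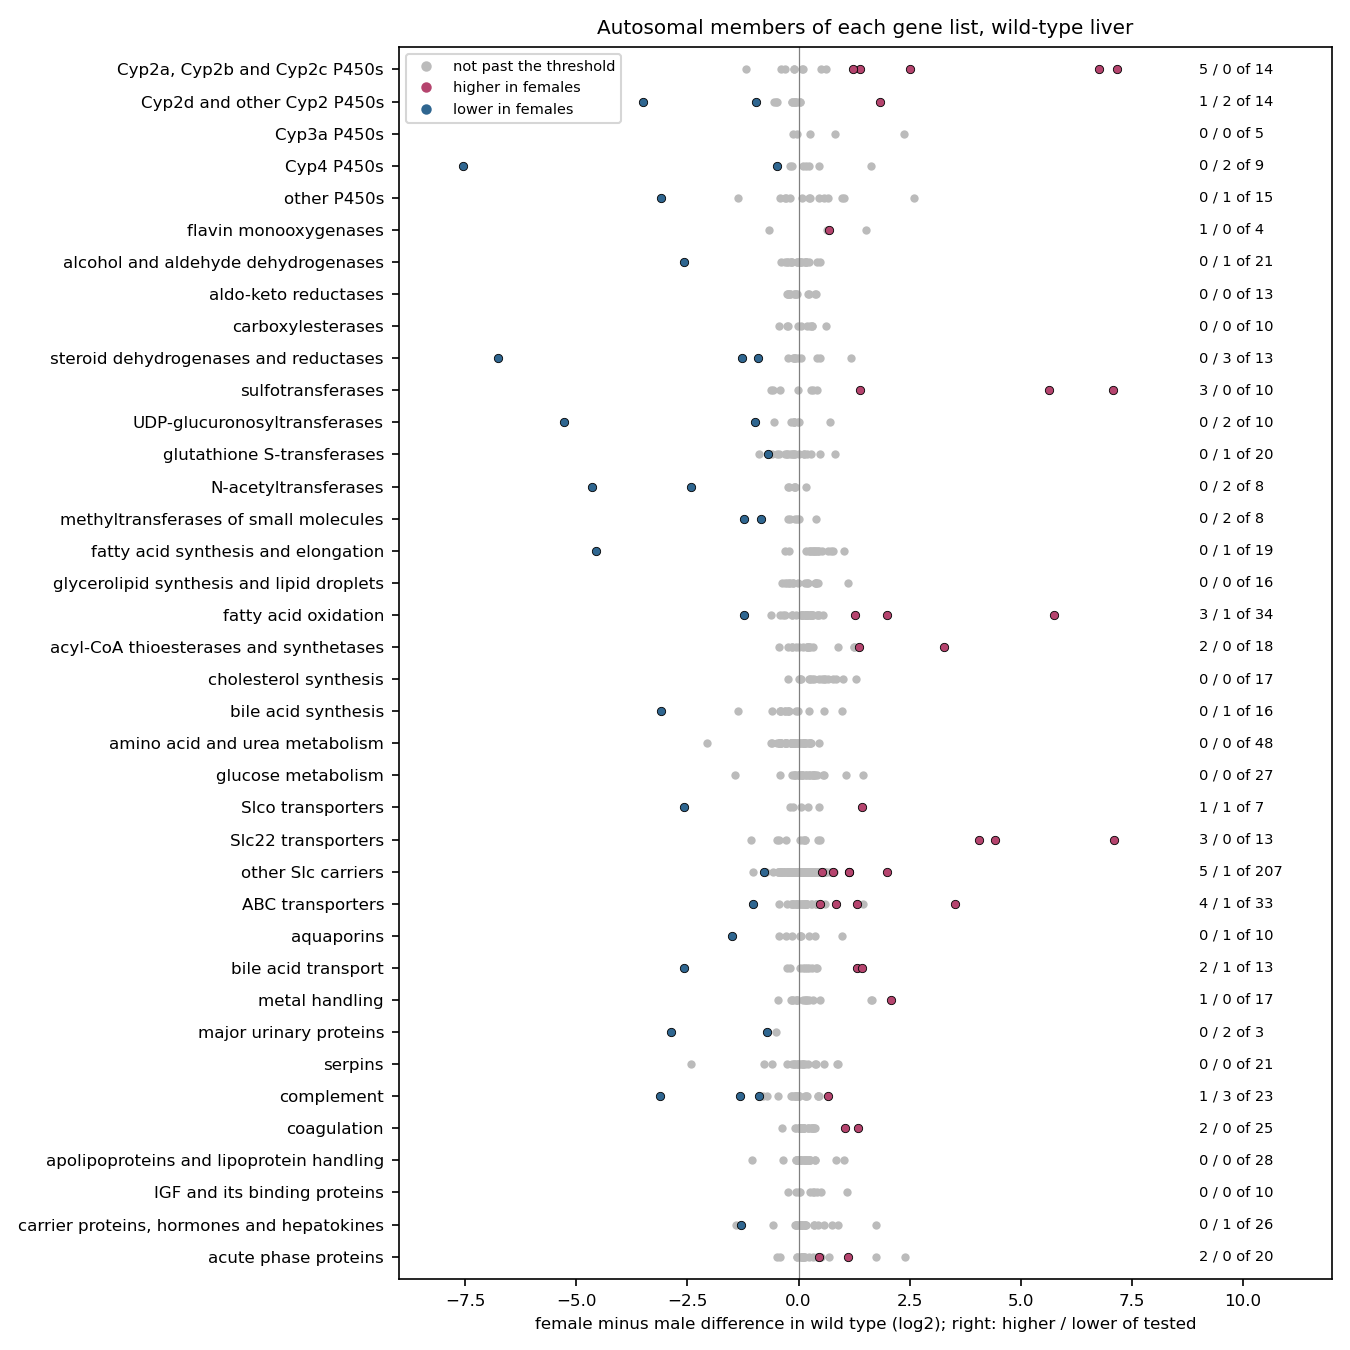
Female minus male differences (log2, horizontal axis) of the tested autosomal members of each gene list, 1 point per gene, with the counts of members higher and lower in females and of members tested at the right. Red and blue points passed the threshold; 5 of 14 Cyp2a, Cyp2b and Cyp2c genes were higher in females and none of them was lower, while 2 of 10 UDP-glucuronosyltransferase genes were lower.

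Cytochromes P450 of the Cyp2b group were far higher in female liver. These haem enzymes of the endoplasmic reticulum oxidise drugs and steroids. Cyp2b9 read 11.60, 11.41 and 11.75 in the 3 females and 4.91, 4.49 and 3.87 in the 3 males. All males lay below their array medians, so the difference of 7.16 ± 0.26 is at least 98.7-fold (limma adjusted p = 1.09e-08). Cyp2b13, a near-identical neighbour, read 12.01, 11.73 and 11.90 in females and 5.31, 4.99 and 5.06 in males. The males lay close to their array medians, so no exact fold is given (6.76 ± 0.48, limma adjusted p = 7.3e-06). Cyp2b10, the member known to respond to the xenobiotic receptor CAR, read 8.77, 10.27 and 9.80 in females and 6.26, 7.43 and 7.61 in males. Its groups did not overlap but varied more from mouse to mouse, and the difference was 2.52 ± 0.51 (limma adjusted p = 0.0264). The Cyp2b10 call was lost when female 2, female 3, male 1 or male 2 was left out, with differences of 2.09 to 2.94 over the 6 arrays left out in turn. The array probes may bind both Cyp2b9 and Cyp2b13, so the level of each of the pair is less certain than that of single-copy genes.

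The 180 bases before the start of the 3 Cyp2b genes are shown because these neighbours on chromosome 7 were all higher in females, to very different degrees. They are RefSeq sequences on GRCm38.p6, on the + strand, at chr7:26173229-26173408 for Cyp2b9, chr7:26061315-26061494 for Cyp2b13 and chr7:25897478-25897657 for Cyp2b10.
Cyp2b9: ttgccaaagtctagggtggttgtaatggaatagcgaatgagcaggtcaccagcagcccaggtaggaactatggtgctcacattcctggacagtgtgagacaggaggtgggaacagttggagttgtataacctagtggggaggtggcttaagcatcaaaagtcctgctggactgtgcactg
Cyp2b13: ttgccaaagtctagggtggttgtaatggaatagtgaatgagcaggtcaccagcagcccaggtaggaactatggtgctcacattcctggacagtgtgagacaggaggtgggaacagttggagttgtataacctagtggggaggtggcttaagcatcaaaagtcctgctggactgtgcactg
Cyp2b10: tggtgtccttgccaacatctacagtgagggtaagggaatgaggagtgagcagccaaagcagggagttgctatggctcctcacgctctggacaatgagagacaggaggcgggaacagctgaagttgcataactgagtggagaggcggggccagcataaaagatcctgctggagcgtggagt
In global alignments of the 250 bases before the start, with gaps counted as differences, Cyp2b9 and Cyp2b13 were 99.2% identical, and each was 71.0% identical to Cyp2b10. None of these windows holds the letters TTCNNNGAA, the textbook STAT5 site, which reads the same on both strands. A missing match says only that these letters are not in this window.

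Other female-high P450 genes differed by less. Cyp2g1, mainly known from the olfactory mucosa, read 8.06, 7.60 and 7.95 in females and 6.25, 5.79 and 6.05 in males, without overlap (1.84 ± 0.37, limma adjusted p = 0.0264). Cyp2c38 read 10.38, 10.23 and 10.89 in females against 9.26, 8.92 and 9.20 in males (1.38 ± 0.31, limma adjusted p = 0.0476). Both lie next to genes that also differed, Cyp2g1 next to the Cyp2b genes and Cyp2c38 next to Cyp2c68. Cyp2c68 read 13.71, 13.67 and 13.81 in females and 12.37, 12.63 and 12.52 in males (1.22 ± 0.10). The other Cyp2c genes tested did not pass, with differences from −1.18 for Cyp2c55 to 0.61 for Cyp2c39. The Cyp2g1 call was lost without female 1, female 3, male 1 or male 2 (1.72 to 1.98), and the Cyp2c38 call without any one of the 6 arrays (1.18 to 1.51). Over the Cyp2a, Cyp2b and Cyp2c list, 5 of 14 tested genes were higher and 0 lower in females by limma, and 7 and 2 at an unadjusted p under 0.05. The list's median difference was 0.30. Fmo1, a flavin monooxygenase that oxidises nitrogen- and sulfur-containing drugs, was modestly higher, with 12.37, 12.04 and 12.30 in females and 11.61, 11.66 and 11.43 in males (0.67 ± 0.11, limma adjusted p = 0.00754).

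Male liver was set apart by Cyp4a12a, Cyp2d9 and Cyp7b1. Cyp4a12a, a fatty acid and arachidonic acid hydroxylase, read 11.88, 11.50 and 11.79 in males and 4.18, 3.66 and 4.70 in females. Every female value lay below its array median, so the gene was at least 109-fold lower in females (−7.54 ± 0.43, limma adjusted p = 8.39e-07). Cyp2d9, a testosterone 16-alpha-hydroxylase, read 13.82, 13.75 and 13.63 in males and 10.69, 10.11 and 9.91 in females. Females still had a clear Cyp2d9 signal, and the difference was 11.3-fold (−3.50 ± 0.48, limma adjusted p = 0.00254). Cyp7b1, which hydroxylates oxysterols in the acidic pathway of bile acid synthesis, read 13.37, 13.31 and 13.21 in males and 10.19, 10.13 and 10.27 in females. Mice of the same sex lay close together, and the gene was 8.59-fold lower in females (−3.10 ± 0.12, limma adjusted p = 1.39e-08). Cyp2u1 (−0.96 ± 0.16) and Cyp4v3 (−0.49 ± 0.10) were lower in females by limma adjusted p = 0.00948 and 0.0275. The Cyp2u1 call was lost without male 2, and the Cyp4v3 call without female 2, female 3, male 1 or male 2 (−0.54 to −0.43).

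Many P450 genes of drug and sterol metabolism did not pass. Cyp3a11, a main drug-oxidising P450 of mouse liver, differed by −0.04 ± 0.09, Cyp2e1, which oxidises ethanol, by 0.03 ± 0.09, Cyp1a2 by −0.28 ± 0.21 and Cyp2c29 by −0.11 ± 0.09. None of the 5 tested Cyp3a genes passed by limma, and 2 were higher at an unadjusted p under 0.05. Cyp17a1, the steroid 17-hydroxylase, read 9.44, 7.34 and 10.34 in females and 7.06, 6.11 and 6.17 in males. The groups did not overlap, but the females spread widely and the difference of 2.59 ± 0.61 missed the threshold (limma adjusted p = 0.0551). It passed when female 2 was left out (3.44).

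**Figure D2:**
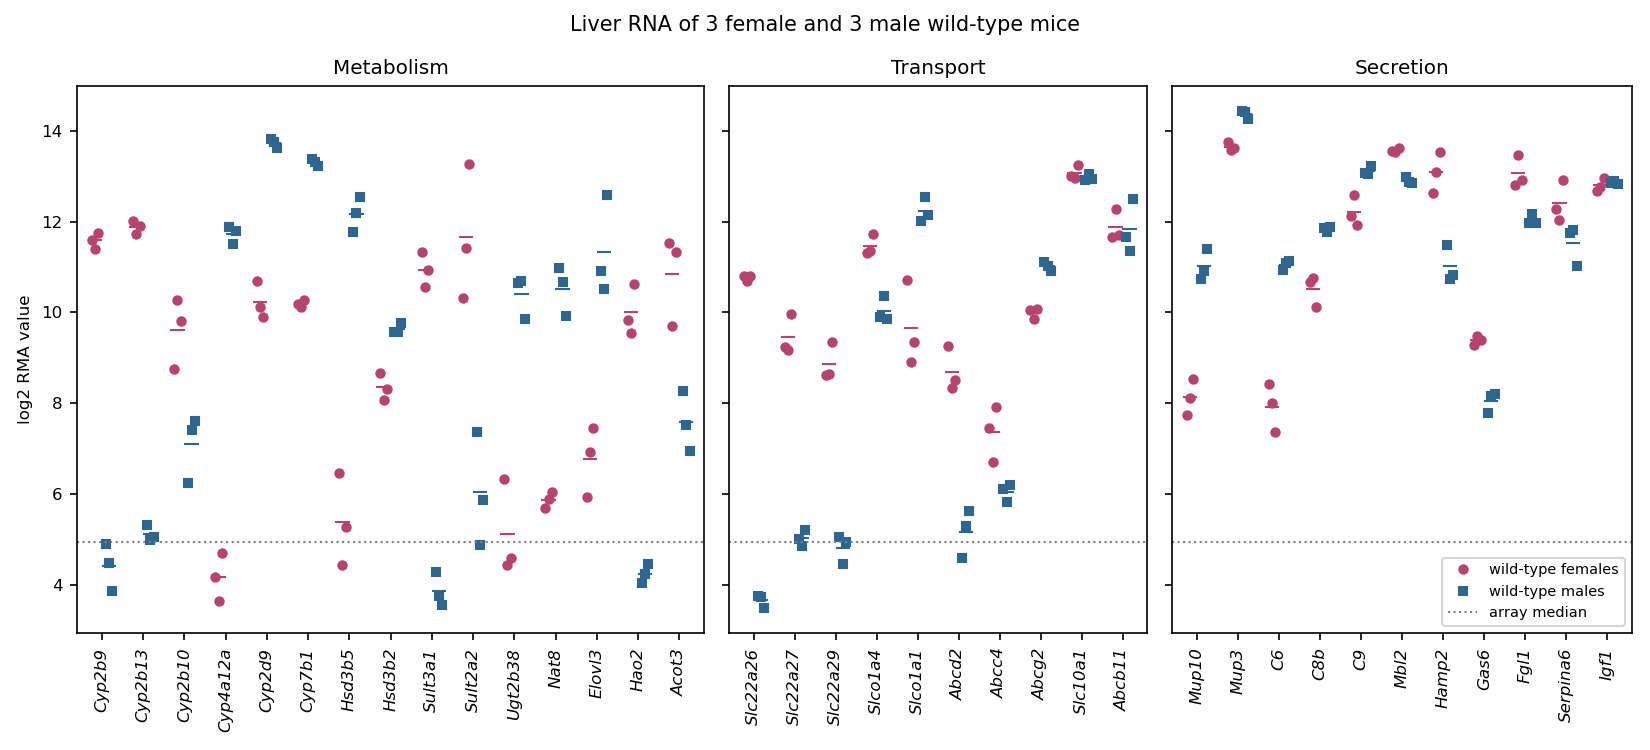
Log2 RMA values (vertical axis) of selected metabolic, transport and secretory genes on the 3 female and 3 male wild-type arrays, 1 point per mouse, with short lines at the group means and the array median as a dotted line. Cyp2b9 reads 11.41 to 11.75 in females and 3.87 to 4.91 in males, and Cyp4a12a reads 11.50 to 11.88 in males and 3.66 to 4.70 in females.

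Among steroid-handling dehydrogenases, 3 neighbouring Hsd3b genes were lower in females. The Hsd3b genes encode 3-beta-hydroxysteroid dehydrogenases, of which Hsd3b5 is known as a 3-ketosteroid reductase of male liver. Hsd3b5 read 11.76, 12.18 and 12.54 in males and 6.48, 4.43 and 5.27 in females. The lowest male lay far above the highest female, and female 2 was below its array median, so no exact fold is given (−6.77 ± 0.68, limma adjusted p = 0.000191). Hsd3b2 read 8.67, 8.08 and 8.31 in females and 9.56, 9.57 and 9.77 in males (−1.28 ± 0.24, limma adjusted p = 0.0194), and Hsd3b3 10.30, 10.48 and 10.64 against 11.40, 11.24 and 11.50 (−0.91 ± 0.14, limma adjusted p = 0.00464). The Hsd3b2 call was lost without female 2, female 3, male 1 or male 2 (−1.44 to −1.14). These were the 3 of 13 tested steroid dehydrogenases and reductases that passed, all lower in females. At an unadjusted p under 0.05, 2 members were higher and 3 lower, and the list's median difference was −0.08. Adh6-ps1, annotated as an alcohol dehydrogenase pseudogene, read 5.35, 5.35 and 4.94 in females and 7.22, 8.04 and 8.10 in males (−2.57 ± 0.32, limma adjusted p = 0.00108).

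Sulfotransferases were the conjugating enzymes higher in females, with 3 of 10 tested genes passing and 0 lower by limma (4 higher and 3 lower at an unadjusted p under 0.05). They transfer sulfate to steroids, bile acids and amines. Sult3a1 read 11.34, 10.56 and 10.93 in females and 4.29, 3.77 and 3.57 in males. With all males below the array median, the difference of 7.07 ± 0.34 is at least 63.1-fold (limma adjusted p = 1.54e-07). Sult2a2, one of several similar hydroxysteroid sulfotransferases, read 10.32, 11.41 and 13.27 in females and 7.38, 4.89 and 5.87 in males. Both sexes varied widely, yet the lowest female exceeded the highest male (5.62 ± 0.67, limma adjusted p = 0.000798). Male 2 was below its array median, so no exact fold is given. It was 4.82 without female 3 and 6.30 without female 1. Sult1c2 read 7.35, 6.75 and 8.16 in females and 5.68, 6.26 and 6.17 in males (1.38 ± 0.29, limma adjusted p = 0.0294), a call lost without female 1, female 3, male 1 or male 2 (1.01 to 1.72).

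The promoter of Sult3a1 is shown because it is among the most female-high genes and its window holds the STAT5-type letters, in capitals, at 109 bases before the start. The RefSeq window lies at chr10:33857542-33857721 on the + strand of GRCm38.p6.
Sult3a1: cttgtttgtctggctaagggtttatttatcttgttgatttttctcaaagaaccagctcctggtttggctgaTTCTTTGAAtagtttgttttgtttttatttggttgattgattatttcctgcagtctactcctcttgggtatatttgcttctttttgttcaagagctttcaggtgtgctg
The match is a description of the letters and is no evidence of binding.

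Glucuronidation, acetylation, methylation and glutathione transfer were represented by a few genes lower in females. By limma 2 of 10 tested UDP-glucuronosyltransferases, 2 of 8 N-acetyltransferases, 2 of 8 methyltransferases and 1 of 20 glutathione S-transferases were lower. In each list 0 were higher. At an unadjusted p under 0.05, 3, 2, 2 and 4 were lower and 0, 0, 0 and 2 higher, in that order. The shares over all autosomal genes tested were 2.0% and 14.6%. Ugt2b38, a UDP-glucuronosyltransferase of a family that couples glucuronic acid to steroids and drugs, read 6.33, 4.44 and 4.60 in females and 10.64, 10.70 and 9.85 in males. Female 1 lay above the other females but well below every male (−5.27 ± 0.41, limma adjusted p = 1.57e-05). Females 2 and 3 were below their array medians, so no exact fold is given. It was −5.88 without female 1. Ugt2b1 differed less, with 12.38, 12.00 and 12.10 in females and 13.30, 13.05 and 13.09 in males (−0.98 ± 0.12, limma adjusted p = 0.00116). Nat8, an acetyltransferase of cysteine conjugates, read 5.70, 5.90 and 6.04 in females and 10.98, 10.67 and 9.92 in males, a 24.9-fold difference (−4.64 ± 0.22, limma adjusted p = 1.34e-07). Its neighbour Nat8f5 read 4.13, 4.43 and 4.41 in females, below the array median, and 7.18, 7.50 and 5.56 in males. It was at least 3.48-fold lower in females (−2.43 ± 0.37, limma adjusted p = 0.00464), and by −3.02 without male 3. Gstp1, a glutathione S-transferase, read 13.80, 13.70 and 13.74 in females and 14.40, 14.47 and 14.41 in males (−0.68 ± 0.11, limma adjusted p = 0.00754). Tpmt, which methylates thiopurines, differed by −1.23 ± 0.15 (limma adjusted p = 0.00114), but its probe sets ranged from −0.14 to −1.23. Hnmt, which methylates histamine, differed by −0.85 ± 0.18 (limma adjusted p = 0.0369) and was lost without female 1, female 2, male 1 or male 2 (−1.07 to −0.70).

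In fatty acid synthesis and elongation 1 of 19 tested genes passed. Elovl3, an elongase of very long chain fatty acids, read 5.94, 6.94 and 7.45 in females and 10.91, 10.53 and 12.58 in males. Male 3 was the highest, the groups lay far apart, and the gene was 23.6-fold lower in females (−4.56 ± 0.66, limma adjusted p = 0.00383; −3.94 without male 3). The other 18 tested genes of fatty acid synthesis and elongation did not pass by limma. Of that list 6 genes were higher and 1 lower at an unadjusted p under 0.05, with a median of 0.36, and Fasn, the fatty acid synthase, differed by 1.02 ± 0.33 (limma adjusted p = 0.163).

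Of 34 tested genes of fatty acid oxidation 3 were higher and 1 lower in females (9 and 4 at an unadjusted p under 0.05), and of 18 acyl-CoA thioesterases and synthetases 2 were higher and 0 lower by limma (4 and 1 at an unadjusted p under 0.05). Hao2, a peroxisomal oxidase of 2-hydroxy acids, read 9.82, 9.54 and 10.64 in females and 4.06, 4.24 and 4.46 in males. All males lay below the array median, and the difference was at least 32.9-fold (5.75 ± 0.24, limma adjusted p = 4.32e-08). Acot3, a thioesterase that splits acyl-CoA, read 11.53, 9.71 and 11.34 in females and 8.28, 7.52 and 6.95 in males, 9.66-fold higher in females (3.27 ± 0.45, limma adjusted p = 0.00254). Acnat2, a related acyltransferase of fatty acids that lies outside these lists, read 9.70, 9.20 and 10.22 in females and 6.57, 7.73 and 6.73 in males (2.70 ± 0.30, limma adjusted p = 0.000412). Acsl3, an acyl-CoA synthetase, read 9.71, 9.65 and 9.38 against 8.22, 8.22 and 8.25 (1.35 ± 0.22, limma adjusted p = 0.00798). The males were almost identical for Acsl3, and none overlapped with a female. Its call was lost with the 3′ minus 5′ difference as a covariate (1.18) and without females 1 and 2 together (1.15) or males 1 and 2 together (1.33). Eci3, an enoyl-CoA isomerase, read 6.06, 7.26 and 7.05 in females and 5.01, 4.74 and 4.65 in males, at least 3.52-fold higher in females (limma adjusted p = 0.0214). Vnn1, a pantetheinase, read 12.16, 11.49 and 11.51 against 10.72, 10.05 and 10.56 (1.28 ± 0.28, limma adjusted p = 0.04). The Eci3 call was lost without female 2, female 3, male 1 or male 2 (1.76 to 2.35), and the Vnn1 call without any one of the 6 arrays (1.06 to 1.42). Nudt7, a peroxisomal hydrolase of coenzyme A, ran the other way, with 12.25, 12.18 and 12.16 in females and 13.49, 13.41 and 13.37 in males (−1.23 ± 0.10, limma adjusted p = 2.55e-05). Its groups lay far apart relative to their spread.

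Lists of central metabolism held 0 genes past the threshold, close to the 2.0% over all autosomal genes at their sizes. Of 48 genes of amino acid and urea metabolism 0 passed by limma (3 higher and 7 lower at an unadjusted p under 0.05), of 27 genes of glucose metabolism 0 (4 and 1), of 17 genes of cholesterol synthesis 0 (6 and 0) and of 16 genes of glycerolipid synthesis and lipid droplets 0 (2 and 0). The median difference was −0.15, 0.16, 0.46 and 0.07 in these lists, beside 0.02 over all autosomal genes tested. At an unadjusted p under 0.05 the share over all those genes was 14.6%. Cholesterol synthesis, with 6 of 17, lay above that share. In bile acid synthesis, Cyp7b1 was the 1 of 16 tested genes that passed. Cyp7a1, the rate-limiting enzyme of the classic pathway, differed by −0.41 ± 0.54 (limma adjusted p = 0.795) and Cyp8b1, the 12-alpha-hydroxylase, by −1.37 ± 0.50 (limma adjusted p = 0.221). Aldo-keto reductases (0 of 13 by limma, 2 higher at an unadjusted p under 0.05) and carboxylesterases (0 of 10, 3 higher and 2 lower) also had no gene past it.

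Uptake carriers of organic anions included the gene with the smallest p-value among those named. Slc22a26, a member of the organic anion transporter family, read 10.80, 10.70 and 10.80 in females and 3.77, 3.74 and 3.50 in males. All males were below the array median, and the gene was at least 55.8-fold higher in females (7.10 ± 0.12, limma adjusted p = 4.21e-12). Slc22a27 read 9.23, 9.17 and 9.96 in females and 5.02, 4.86 and 5.22 in males, near or below the array median (4.42 ± 0.21, limma adjusted p = 1.58e-07). Slc22a29 read 8.63, 8.65 and 9.35 in females and 5.07, 4.46 and 4.95 in males, at least 14.8-fold higher (4.05 ± 0.23, limma adjusted p = 6.63e-07). In both genes female 3 was the highest mouse and no values overlapped. The 3 genes lie side by side on chromosome 19 and belong to one family, so part of their signal may be shared. The next family member along, Slc22a30, differed by −0.48 and did not pass. In all, 3 of 13 tested Slc22 genes were higher and 0 lower by limma, with 3 higher and 3 lower at an unadjusted p under 0.05.

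The Slc22a26 promoter is shown because it is the only window of the 3 neighbours that holds TTCNNNGAA, in capitals at 141 bases before the start, although all 3 genes were higher in females. It lies at chr19:7802668-7802847 on the − strand of GRCm38.p6 and comes from RefSeq.
Slc22a26: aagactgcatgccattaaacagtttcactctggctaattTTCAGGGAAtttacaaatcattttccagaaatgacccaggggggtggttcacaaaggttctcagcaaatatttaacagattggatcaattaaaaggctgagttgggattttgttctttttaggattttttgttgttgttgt
Over 250 bases the Slc22a26 window was 50.2% identical to that of Slc22a27 and 45.3% to that of Slc22a29, in contrast with the near-identical Cyp2b9 and Cyp2b13 windows.

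Slco carriers take up bile acids, steroid conjugates and drugs from the blood, and a neighbouring pair of them differed in opposite directions. Slco1a4 read 11.32, 11.35 and 11.73 in females and 9.91, 10.35 and 9.85 in males, 2.69-fold higher in females (1.43 ± 0.17, limma adjusted p = 0.000664). Slco1a1 read 10.72, 8.90 and 9.36 in females and 12.02, 12.53 and 12.15 in males, 5.96-fold lower in females (−2.58 ± 0.57, limma adjusted p = 0.0429). Female 1 was the closest to the males for Slco1a1, and the call was lost when any array other than female 1 was left out (−3.11 to −2.20). Slco1b2, the main Slco carrier of the hepatocyte, differed by −0.19 and did not pass. Both promoters are shown to set the opposed neighbours side by side; they are RefSeq windows on the − strand of GRCm38.p6, at chr6:141856221-141856400 for Slco1a4 and chr6:141946963-141947142 for Slco1a1.
Slco1a4: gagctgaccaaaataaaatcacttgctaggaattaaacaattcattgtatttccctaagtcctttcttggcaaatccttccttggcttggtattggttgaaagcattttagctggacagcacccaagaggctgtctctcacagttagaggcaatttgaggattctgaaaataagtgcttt
Slco1a1: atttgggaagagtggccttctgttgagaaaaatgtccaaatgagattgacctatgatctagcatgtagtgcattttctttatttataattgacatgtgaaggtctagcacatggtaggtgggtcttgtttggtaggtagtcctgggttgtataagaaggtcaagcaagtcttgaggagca
The 250-base windows of the pair were 49.1% identical, and neither holds TTCNNNGAA.

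ABC transporters export or move substrates with ATP. Of 33 tested genes 4 were higher and 1 lower in females, and 8 and 2 at an unadjusted p under 0.05. These counts stand beside 2.0% and 14.6% of all autosomal genes tested. Abcd2, a peroxisomal importer of very long chain acyl-CoA, read 9.25, 8.34 and 8.51 in females and 4.61, 5.30 and 5.63 in males, where male 1 was below its array median (3.52 ± 0.30, limma adjusted p = 3.61e-05). Abcc4, an efflux pump of the blood-facing membrane, read 7.46, 6.72 and 7.92 against 6.11, 5.83 and 6.20 (1.32 ± 0.27, limma adjusted p = 0.0264). Abca3 (0.84 ± 0.13, limma adjusted p = 0.00488) and Abcc9 (0.48 ± 0.11, limma adjusted p = 0.0432) were higher by less, and the other Abcc9 probe sets differed by 0.17 ± 0.26 and 0.15 ± 0.14. Abcg2, an efflux pump of the canalicular membrane, was the one lower in females, with 10.05, 9.86 and 10.07 against 11.11, 11.02 and 10.91 in males (−1.02 ± 0.13, limma adjusted p = 0.00134). The Abcc4 call was lost without female 1, female 3, male 1 or male 2 (1.05 to 1.65) and the Abcc9 call without any one of the 6 arrays (0.39 to 0.53). The principal bile salt carriers did not differ past the threshold. Slc10a1, the sodium-dependent importer, read 13.01, 12.96 and 13.24 in females and 12.92, 13.06 and 12.93 in males, and Abcb11, the bile salt export pump, differed by 0.04 ± 0.29 (limma adjusted p = 0.968).

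Among 207 other Slc carriers 5 were higher and 1 lower in females, with a median of 0.06. At an unadjusted p under 0.05, 24 were higher and 10 lower. Over all autosomal genes tested 2.0% passed the threshold and 14.6% had an unadjusted p under 0.05. Slc17a1, a sodium phosphate and urate carrier, read 8.52, 8.14 and 8.27 in females and 6.79, 7.39 and 7.35 in males (1.13 ± 0.17, limma adjusted p = 0.00411). The monocarboxylate carriers Slc16a5 (2.0 ± 0.45, limma adjusted p = 0.0438) and Slc16a7 (0.77 ± 0.15, limma adjusted p = 0.0194) and the dicarboxylate carrier Slc13a3 (1.14 ± 0.22, limma adjusted p = 0.0202) were higher in females. Slc25a17, a carrier of the peroxisomal membrane, was lower (−0.79 ± 0.13, limma adjusted p = 0.00662). The Slc16a5 call was lost without female 1, female 3, male 2 or male 3 (1.60 to 2.55), the Slc16a7 call without female 1, female 3 or male 2 (0.66 to 0.90), and the Slc13a3 call without female 1, female 2 or male 2 (0.97 to 1.35). Aqp4, a water channel, read 4.21, 3.44 and 3.80 in females, below the array median, and 5.48, 5.09 and 5.39 in males, so it was at least 1.29-fold lower in females (limma adjusted p = 0.00488).

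In iron handling, Hamp2 differed and Hamp, the gene of the iron hormone hepcidin, did not. Hamp2, a hepcidin-like copy, read 12.63, 13.09 and 13.53 in females and 11.49, 10.74 and 10.82 in males, 4.20-fold higher in females (2.07 ± 0.27, limma adjusted p = 0.00147). Hamp differed by 0.09. The copies resemble each other, so cross-binding of probes limits how exactly either level is known. The Hamp2 window is shown because it holds TTCNNNGAA, in capitals at 94 bases before the start. It is the RefSeq sequence at chr7:30924182-30924361 on the − strand of GRCm38.p6.
Hamp2: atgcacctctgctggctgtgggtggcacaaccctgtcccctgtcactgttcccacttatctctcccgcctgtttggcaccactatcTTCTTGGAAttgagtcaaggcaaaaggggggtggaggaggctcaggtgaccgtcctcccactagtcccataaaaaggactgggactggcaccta

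Secreted proteins lower in females included the major urinary proteins, lipocalins that carry pheromones into urine. Mup10 read 7.76, 8.13 and 8.54 in females and 10.73, 10.92 and 11.41 in males, 7.34-fold lower in females (−2.88 ± 0.33, limma adjusted p = 0.000664). Mup3 read 13.75, 13.57 and 13.62 against 14.43, 14.42 and 14.25 (−0.72 ± 0.14, limma adjusted p = 0.0191), a call lost without female 2, female 3, male 1 or male 2 (−0.78 to −0.69). The third member tested, Mup5, differed by −0.50 and did not pass. The Mup genes are near-identical copies, so these values may mix several of them.

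Of 6 genes tested that encode parts of the membrane attack complex of complement, C6, C8b and C9 were lower in females and C8a, C8g and Hc did not pass. C6 read 8.42, 8.0 and 7.37 in females and 10.94, 11.09 and 11.13 in males, 8.71-fold lower in females (−3.12 ± 0.23, limma adjusted p = 1.12e-05). C8b read 10.67, 10.77 and 10.11 in females and 11.86, 11.77 and 11.88 in males (−1.32 ± 0.16, limma adjusted p = 0.000948). C9 read 12.13, 12.59 and 11.93 against 13.08, 13.05 and 13.22 (−0.90 ± 0.19, limma adjusted p = 0.0292). In all 3 genes the males lay closer together than the females, with no overlap. The C9 call was lost when any array other than female 2 was left out (−1.09 to −0.76). C8a differed by −0.80 ± 0.22, C8g by −0.10 ± 0.09 and Hc, the gene of C5, by −0.17 ± 0.13, and none of them passed (limma adjusted p = 0.0963, 0.687 and 0.605). Mbl2, a lectin that starts the complement cascade, was higher in females, with 13.54, 13.54 and 13.61 against 12.97, 12.87 and 12.85 (0.66 ± 0.09, limma adjusted p = 0.00167). Over the complement list 1 of 23 tested genes was higher and 3 were lower, and 4 and 6 at an unadjusted p under 0.05. The shares over all autosomal genes tested were 2.0% and 14.6%.

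Of 25 tested coagulation genes 2 were higher in females and 0 lower by limma (7 and 0 at an unadjusted p under 0.05), and of 20 acute phase genes 2 and 0 (4 and 2), beside 2.0% over all autosomal genes. Gas6, a vitamin K-dependent ligand of the TAM receptors, read 9.29, 9.49 and 9.39 in females and 7.79, 8.17 and 8.21 in males (1.33 ± 0.13, limma adjusted p = 0.000118), while its dimmer probe set differed by −0.23. Fgl1, a fibrinogen-like hepatokine, read 12.81, 13.47 and 12.91 against 11.96, 12.16 and 11.96 (1.03 ± 0.15, limma adjusted p = 0.00411). Apcs, the serum amyloid P component, read 12.04, 12.73 and 12.07 against 11.18, 11.22 and 11.08 (1.12 ± 0.21, limma adjusted p = 0.0179). Female 2 was the highest mouse for Gas6, Fgl1 and Apcs. Itih4, an inter-alpha-trypsin inhibitor chain, was higher by 0.47 ± 0.10 (limma adjusted p = 0.0368). The Apcs call was lost without male 1 or male 2 (0.90 to 1.24), and the Itih4 call without any array other than male 3 (0.40 to 0.51).

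Bulk plasma proteins such as albumin did not differ past the threshold. Of 26 tested carrier proteins, hormones and hepatokines 1, Cela1, was lower and 0 were higher by limma. At an unadjusted p under 0.05, 6 of that list were higher and 2 lower. Alb, the gene of albumin, differed by 0.04 ± 0.08 and Ttr, of transthyretin, by 0.05. Alb averaged 14.79 in females and 14.75 in males, and Ttr 14.63 and 14.58. Whether values this high still follow the RNA amount was not tested. The same holds for Cyp3a11, Cyp2e1, Gstp1 and Mup3, whose male means were 14.31, 14.20, 14.43 and 14.37. None of 21 serpin genes passed by limma (3 higher and 2 lower at an unadjusted p under 0.05) and none of 28 genes of apolipoproteins and lipoprotein handling (5 higher and 1 lower). Serpina6, the gene of corticosteroid-binding globulin, read 12.28, 12.04 and 12.91 in females and 11.74, 11.80 and 11.02 in males (0.89 ± 0.24, limma adjusted p = 0.0973). Igf1, the main growth hormone-dependent secreted factor, read 12.68, 12.76 and 12.96 in females and 12.85, 12.90 and 12.83 in males, overlapping throughout (−0.06 ± 0.12). None of the 10 tested genes of IGF and its binding proteins passed by limma, and 2 were higher at an unadjusted p under 0.05.

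Of 30 tested genes of growth hormone receptor signalling 1 was higher and 2 were lower in females, and 4 and 4 at an unadjusted p under 0.05, beside 14.6% of all autosomal genes tested in both directions. Ghr, the receptor, differed by 0.00 ± 0.12, Socs2, a feedback inhibitor, by 0.34 ± 0.25, Cish by 0.27 ± 0.62 and Stat5b by 0.40 ± 0.32, and none of these 4 passed. Bcl6, a repressor known to bind at STAT5 sites in male liver, read 7.82, 6.41 and 5.95 in females and 8.31, 9.44 and 8.60 in males (−2.06 ± 0.41, limma adjusted p = 0.0241). Female 1 came close to male 1, and the call was lost without female 2, female 3 or male 2 (−2.60 to −1.67). Trim24, a transcriptional co-regulator, read 9.45, 8.87 and 9.07 in females and 8.08, 7.93 and 7.54 in males (1.28 ± 0.17, limma adjusted p = 0.00226), with 0.49 ± 0.35 for its dim probe set. Zbtb20 differed by −0.62 ± 0.13 (limma adjusted p = 0.0287) and lost its call without female 2, female 3, male 1 or male 2 (−0.74 to −0.52). Cux2, a factor known for its female bias in liver, depended on the probe set, with −0.02 ± 0.14 for the brightest, which was the one tested, and 0.60 ± 0.13 and 3.44 ± 0.38 for the others. Egfr, the receptor of epidermal growth factor, read 11.91, 9.91 and 10.74 in females and 11.91, 12.53 and 12.36 in males. Female 1 lay next to male 1, and the difference of −1.41 ± 0.42 missed the threshold (limma adjusted p = 0.13) but passed at −1.94 without female 1. It also passed with the mean of all probe sets (−0.85) and with the dimmest one (−1.38 ± 0.26), and the 6 probe sets ranged from −1.48 to 0.16.

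The Bcl6 promoter is shown because its window holds 3 matches to TTCNNNGAA, in capitals at 168, 122 and 88 bases before the start. The table lists 2 starts for Bcl6, and the one with most matches is printed, a choice that favours matches. The RefSeq window lies at chr16:23981284-23981463 on the − strand of GRCm38.p6.
Bcl6: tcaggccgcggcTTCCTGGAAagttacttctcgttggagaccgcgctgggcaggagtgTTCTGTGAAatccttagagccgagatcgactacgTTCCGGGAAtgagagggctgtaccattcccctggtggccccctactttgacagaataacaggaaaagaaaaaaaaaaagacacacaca
Over the 250 bases before the start, the motif was present in 16 of 119 genes higher in females with a promoter in the table (13.4%), in 7 of 62 genes lower in females (11.3%) and in 685 of all 9498 autosomal genes tested that had one (7.2%). These shares are descriptions without a test.

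Genes outside these lists also differed, by less than the largest differences within them. Tcf24, a helix-loop-helix factor, read 8.17, 8.34 and 8.10 in females and 3.88, 3.97 and 4.25 in males, at least 9.47-fold higher in females (4.17 ± 0.14, limma adjusted p = 4.26e-09). Rad51b, a recombination protein, read 8.15, 8.12 and 8.38 against 3.31, 3.55 and 3.87, at least 9.54-fold higher (4.64 ± 0.50, limma adjusted p = 0.000338). In both genes all males lay below the array median. Nt5e, an ectonucleotidase that forms adenosine, read 9.35, 9.82 and 9.50 in females and 6.33, 6.19 and 7.17 in males (2.99 ± 0.26, limma adjusted p = 4.72e-05), although a further probe set differed by 0.48. Ccnd1, the gene of cyclin D1, read 11.38, 10.55 and 10.12 in females and 8.86, 8.04 and 8.20 in males (2.32 ± 0.37, limma adjusted p = 0.00638). Vldlr, a lipoprotein receptor, was at least 6.11-fold higher in females (2.88 ± 0.33, limma adjusted p = 0.000664), with probe sets from 0.57 to 2.88.

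Genes outside the lists that were lower in females included receptors and enzymes of the membrane. Scara5, a ferritin-binding scavenger receptor, read 3.87, 3.93 and 3.87 in females and 9.33, 9.53 and 6.42 in males, at least 11.1-fold lower in females (−4.54 ± 0.60, limma adjusted p = 0.00177). Male 3 lay well below the other males, and the difference was −5.54 without it. Susd4, a complement regulator, read 6.38, 6.03 and 5.74 in females and 8.67, 8.10 and 8.27 in males (−2.30 ± 0.19, limma adjusted p = 2.55e-05). Nox4, an NADPH oxidase that forms hydrogen peroxide, read 8.44, 8.81 and 7.93 against 10.13, 10.47 and 10.78 (−2.07 ± 0.26, limma adjusted p = 0.00109). Keg1, a glycine acyltransferase-like gene, read 10.37, 9.89 and 10.18 in females and 11.96, 11.85 and 11.77 in males (−1.71 ± 0.13, limma adjusted p = 1.12e-05). No female overlapped a male in any of these 4 genes.

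Markers of the hepatocyte and of its zones along the lobule did not differ past the threshold by limma, with 0 of 5 hepatocyte, 0 of 6 periportal and 0 of 8 perivenous markers passing and 0 at an unadjusted p under 0.05 in each. Markers of other liver cells differed by list. All 9 Kupffer cell markers tested had positive differences (0.36 to 0.64), with 4 at an unadjusted p under 0.05, and their mean level was 9.38, 9.79 and 9.76 in females and 9.09, 8.62 and 9.64 in males. Endothelial markers averaged 8.16, 8.01 and 8.14 against 7.63, 7.69 and 8.05, and stellate cell markers 8.74, 8.83 and 8.66 against 8.23, 8.30 and 8.61. None of the 8 endothelial and 8 stellate cell markers passed by limma, with 4 and 6 higher at an unadjusted p under 0.05. In each of these lists male 3 was the male nearest to the females. Cd3g, a subunit of the T cell receptor complex, was the 1 of 7 T and NK cell markers that passed, at least 1.14-fold higher in females (0.70 ± 0.15, limma adjusted p = 0.0311). Its call was lost without female 2, female 3, male 1 or male 2 (0.59 to 0.80). None of 4 cholangiocyte markers passed by limma, and 1, Sox9 (−0.52), was lower at an unadjusted p under 0.05. The 2 neutrophil markers tested averaged 5.52, 7.70 and 5.25 in females and 5.03, 4.81 and 6.09 in males. Female 2 thus stood apart for them, and neither marker passed by limma. In whole liver, fewer cells of a type and less RNA per cell cannot be told apart, and the part of cell makeup in the differences was not tested. Cela1, an elastase gene of the pancreas list, was lower in females, with 8.37, 8.67 and 8.76 against 9.72, 9.99 and 9.98 in males (−1.29 ± 0.18, limma adjusted p = 0.00226). The other pancreas marker tested differed by −0.12 and did not pass.

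Several of the genes that differed were neighbours on a chromosome. In the order of the RefSeq gene table, 31 of the 235 genes lay in 13 runs of at least 2 consecutive tested genes past the threshold, and 4 of the runs held both directions. On chromosome 3, Hsd3b5, Hsd3b2 and Hsd3b3 were lower in females (−6.77, −1.28 and −0.91) and the adjacent Hao2 was higher (5.75). On chromosome 7 the run of Cyp2b10, Cyp2b13, Cyp2b9 and Cyp2g1 was higher throughout, while Axl (0.45), Cyp2a12 (0.10) and Cyp2f2 (−0.55) beyond its end did not pass. Nat8f5 and Nat8 on chromosome 6 were both lower, whereas Slco1a4 and Slco1a1 on the same chromosome were opposed. Cd36, a fatty acid importer, and Gnai1, a G protein subunit, were opposed on chromosome 5 (1.06 and −1.48), as were Nox4 and Ctsc, a lysosomal protease, on chromosome 7 (−2.07 and 1.03). The Gnai1 call was lost without female 2, female 3, male 1 or male 2 (−1.79 to −1.24).

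**Figure D3:**
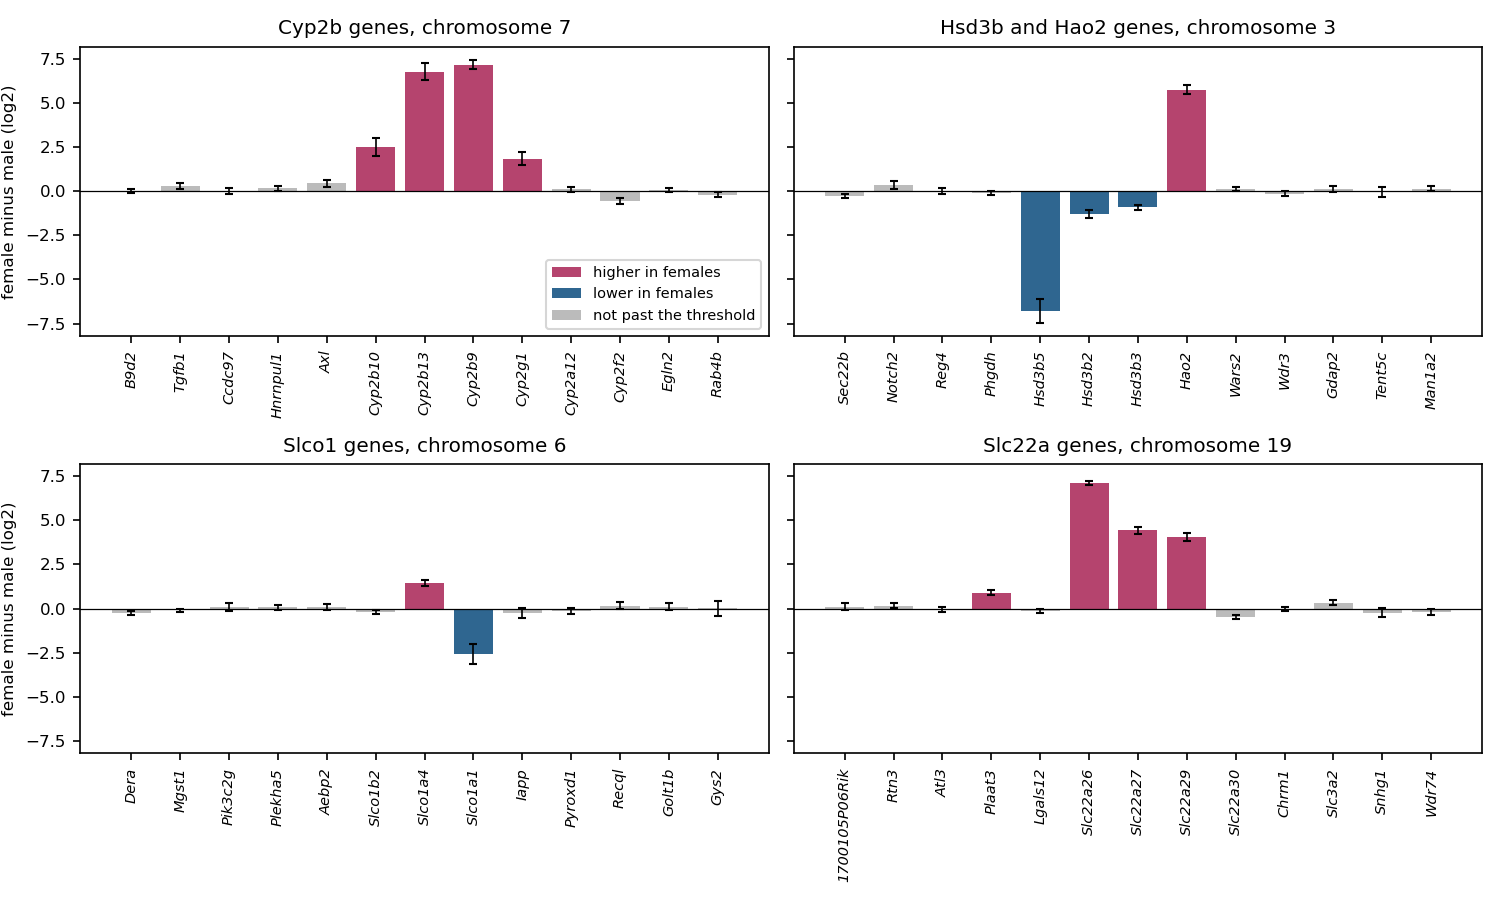
Female minus male difference (log2, bars, with limma's standard error) of tested genes in chromosome order around 4 loci, coloured where past the threshold. The Slc22a26, Slc22a27 and Slc22a29 bars reach 7.10, 4.42 and 4.05 beside −0.48 for Slc22a30, and Hao2 at 5.75 stands next to the Hsd3b genes below 0.

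The same sex difference was then set against that of the knockout mice, which share no array with it. The test of the difference between genotypes passed for 96 of 11778 autosomal genes (0.815%), and for 70 of the 235 genes past the threshold in wild type (29.8%). In all 70 the wild-type difference was the larger in size, which the choice of genes past the threshold in wild type largely fixes. Cyp2b9 differed by −0.10 in the knockout, Sult3a1 by −0.33, Hao2 by −0.53 and Slc22a26 by 0.06, beside 5.75 to 7.16 in wild type. In the knockout mice 224 of all 11778 genes passed between the sexes (1.90%). Only 2 of the 235 genes passed in the same direction there, Ociad2 (−1.16 in wild type and −0.91 in the knockout) and Crtap, a collagen-modifying protein gene (0.59 and 0.64). Another 3 passed in the opposite direction. Cyp2b13 read 7.71, 8.66 and 6.49 in knockout females and 10.34, 10.84 and 9.18 in knockout males (−2.50, limma adjusted p = 0.0266), Tafa2 7.23, 7.70 and 6.98 against 8.47, 8.44 and 8.34 (−1.11, limma adjusted p = 0.0238), and Keg1 10.67, 10.44 and 10.66 against 9.79, 9.84 and 9.78 (0.78, limma adjusted p = 0.018). In wild type Tafa2, which encodes a secreted chemokine-like protein, read 6.93, 6.44 and 6.89 in females and 4.13, 3.58 and 3.63 in males, at least 3.46-fold higher in females (2.97 ± 0.20, limma adjusted p = 4.92e-06). For the remaining genes a missed threshold in the knockout does not show equal levels there.

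**Figure D4:**
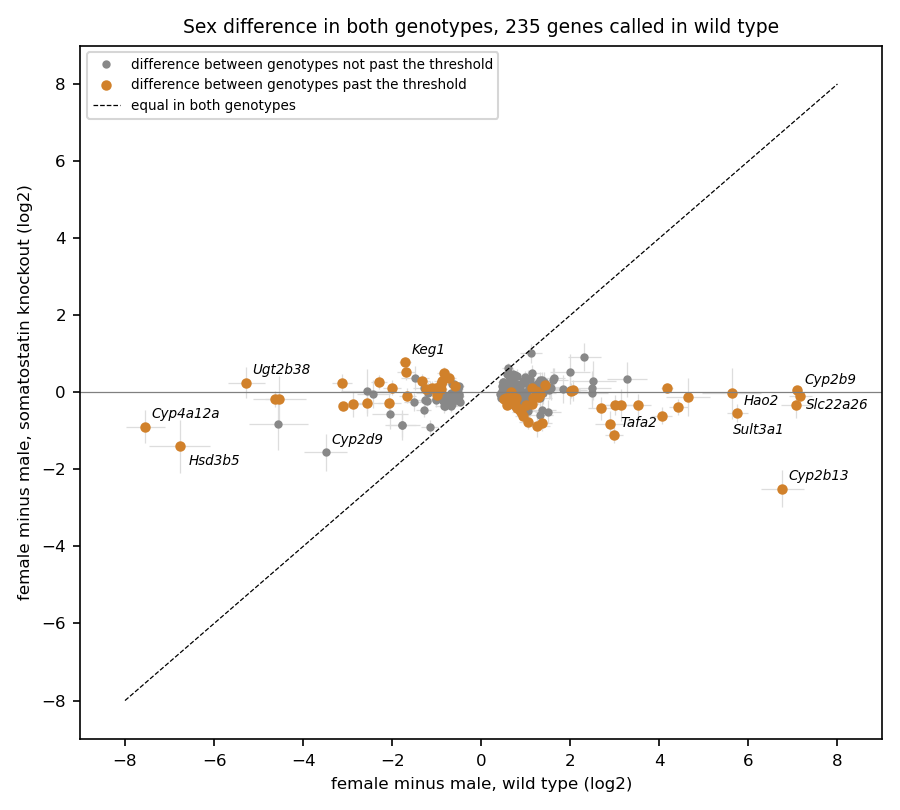
Female minus male difference in wild type (horizontal axis, log2) and in the somatostatin knockout (vertical axis, log2) of the 235 genes past the threshold in wild type, 1 point per gene; orange points passed the test of the difference between genotypes, and the dashed line marks equal differences. Most points lie near 0 on the vertical axis, with Cyp2b13 at 6.76 in wild type and −2.50 in the knockout.

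The number of genes past the threshold moved with single arrays. It was 162, 190 and 190 without females 1, 2 and 3, of which 140, 149 and 148 were among the 235. Without males 1 and 2 it was 128 and 112, with 119 and 104 shared, and without male 3 it was 393, with 209 shared. With the 3′ minus 5′ difference as a covariate 107 genes passed, 96 of them among the 235, and without females 1 and 2 together 73, with 59 shared. With a covariate made from clock genes 313 passed, with 224 shared. These covariates and the pair were chosen after seeing the data. With the 3′ minus 5′ covariate 26 of the named genes lost their call. Among them were Cyp2g1 (1.64), Cyp2c38 (1.59), Cyp2u1 (−0.90), Cyp4v3 (−0.56), Fmo1 (0.66), Hsd3b2 (−1.39), Nat8f5 (−2.30), Hnmt (−0.65) and, of the lipid enzymes, Acsl3 (1.18), Eci3 (2.23) and Vnn1 (0.90). Of the carriers it ended the calls of Abcc4 (1.47), Abcc9 (0.36), Slc13a3 (0.95), Slc16a5 (1.87), Slc16a7 (0.85) and Slc25a17 (−0.62), and of secreted proteins and others those of Mup3 (−0.82), C9 (−1.0), Apcs (1.07), Itih4 (0.44), Zbtb20 (−0.68), Gnai1 (−1.76) and Cd3g (0.70). With the clock covariate 2 named genes lost theirs, Abcc9 (0.48) and B3galt1 (−1.66). Without females 1 and 2 together 41 named genes lost their call, and without males 1 and 2 together 45. Male 3 was the brightest male for 88 of the 158 genes higher in females. A group of 34 genes passed under every one of the alternatives in which they were tested, 20 higher and 14 lower in females. Among the higher were Cyp2b9, Cyp2b13, Sult3a1, Sult2a2, Hao2, Slc22a26, Slc22a27, Slc22a29, Slco1a4, Abcd2, Acot3, Hamp2 and Tafa2. Cyp4a12a, Hsd3b5, Ugt2b38, Nat8, C6, Cyp7b1, Susd4, Nox4, Keg1 and Nudt7 were among the lower. Cyp2d9, Elovl3, Mup10, Scara5, Abcg2, Hsd3b3, Gstp1, Tpmt, Aqp4, Ccnd1 and Nipal1 were not among the 34. With females 1 and 2 left out, Cyp2d9 differed by −3.83, Elovl3 by −3.89 and Mup10 by −2.47.

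**Figure D5:**
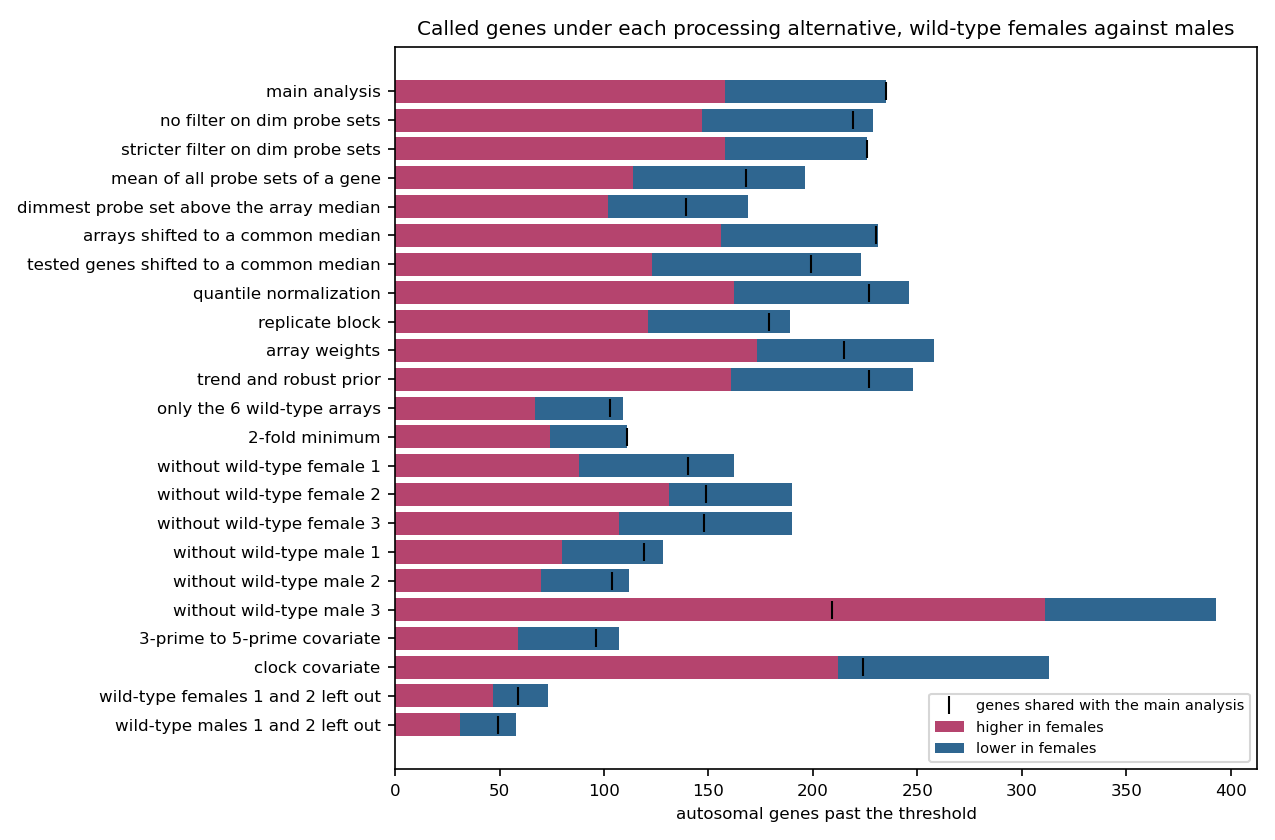
Autosomal genes past the threshold between wild-type females and males (horizontal axis, number of genes) in the analysis as reported and under each alternative (vertical axis), stacked by direction; black ticks mark genes shared with the 235. The bar without male 3 is the longest at 393, and the bar without males 1 and 2 is the shortest at 58.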

How the data were processed

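Liver RNA of 12 mice was measured on 12 Affymetrix 3′ expression arrays, 1 array per mouse, with 100 mg of tissue and 250 ng of RNA as input per the labels' protocols. The values deposited by the authors are log2 summaries of probe sets. Per the submitters' processing notes RMA produced them, and they were used without further transformation. All value columns were assigned by their labels, with 0 left over, and replicates are separate mice per the series record. The array platform's annotation named 1 gene for 34945 of 45101 probe sets, several for 932 and none for 9160, and 64 were controls. Probe sets naming several genes were left out, so Cyp2a4, Mup20 and Prlr, which no probe set names alone, were not tested. Of 18193 genes 99.1% matched a RefSeq gene table by Entrez identifier and 0 symbols were updated.

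The probe set with the highest mean stood for a gene, which was tested when above the array median on at least 3 arrays. This left 12158 genes, 11778 of them autosomal, 322 X-linked, 6 Y-linked and 52 that the table places on no chromosome. The 4 group means were estimated from all 12 arrays together by limma (version 3.58.1, R 4.3.3) on 8 residual degrees of freedom and a prior of 3.72. Benjamini-Hochberg adjustment ran over these 12158 genes, and an adjusted p under 0.05 was the threshold. The knockout arrays thus add to the estimate of spread but not to the wild-type difference. The script was tested on simulated data. Further software was Python 3.11.15, matplotlib 3.10.9 and the R package data.table in version 1.17.8.

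The members and gene lists were chosen with earlier results of these data known. Named genes were fixed names, the 20 most raised and 20 most lowered genes past the threshold without overlap, up to 4 genes per list and direction, 10 per direction outside the lists, and 10 with the largest difference between genotypes. Neighbours of these, further members of Slc22, Slco, Mup and Hamp families, Cyp2c68, Ociad2 and Crtap were named after their values were seen. Promoter windows are RefSeq sequences on GRCm38.p6, 180 bases before the start where printed. The alternatives changed the dim-probe filter, the probe set rule, centring, normalization, weights of arrays, limma's prior and the replicate block, set a 2-fold minimum, or used the 6 wild-type arrays alone, or left out each wild-type array in turn. A 3′ to 5′ covariate, a clock covariate, centring on the tested genes and leaving out females 1 and 2 or males 1 and 2 were added after seeing the data.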

Additional observations from a re-analysis of the deposited data

Results flagged for a closer look

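Of the 114 genes that the naming rule gives, 43 had a sex difference in wild type that differed from that in the knockout by the interaction term of the limma model, which is why they are listed for a closer look. The values below are the wild-type minus the knockout sex difference in log2 units, with limma's standard error and adjusted p for the larger ones. Since all 43 passed in wild type first, their sizes are a description.

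Positive values belong to genes higher in wild-type females. The value was 9.26 ± 0.68 for Cyp2b13 (limma adjusted p = 1.4e-05), 7.40 ± 0.48 for Sult3a1 (6.7e-06), 7.26 ± 0.36 for Cyp2b9 (8.3e-07) and 7.04 ± 0.17 for Slc22a26 (4.3e-10). For Hao2 it was 6.28 ± 0.34 (limma adjusted p = 1.4e-06), for Sult2a2 5.65 ± 0.94 (0.018) and for Slc22a27 4.80 ± 0.30 (5.8e-06). Rad51b (4.76), Slc22a29 (4.66), Tafa2 (4.09), Tcf24 (4.06), Abcd2 (3.86), Vldlr (3.70) and Nipal1 (3.48) followed. Smaller values were found for Nt5e (3.32), Acnat2 (3.11), Hamp2 (2.02), Slc17a1 (1.44), Trim24 (1.37), Gas6 (1.37), Slco1a4 (1.24), Slc16a7 (1.11) and Mbl2 (0.65).

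Negative values belong to genes lower in wild-type females. The value was −6.65 ± 0.61 for Cyp4a12a (limma adjusted p = 0.00016), −5.52 ± 0.57 for Ugt2b38 (0.00047) and −5.36 ± 0.97 for Hsd3b5 (0.027). Nat8 (−4.47), Scara5 (−4.36), C6 (−3.37), Cyp7b1 (−2.73), Mup10 (−2.58), Susd4 (−2.56) and Keg1 (−2.50) followed. Smaller values were found for Adh6-ps1 (−2.28), Tuft1 (−2.22), Ttc39c (−2.13), Nox4 (−1.80), C8b (−1.63), Olig1 (−1.57), Nudt7 (−1.30), Abcg2 (−1.13), Hsd3b3 (−0.98) and Ugt2b1 (−0.91).

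Sizes are not exact where a group mean lay below the array median. This holds for wild-type males in Cyp2b9, Sult3a1, Hao2, Slc22a26, Slc22a29, Rad51b, Tafa2, Tcf24 and Vldlr. It holds for the females of both genotypes and the knockout males in Cyp4a12a, Scara5 and Olig1, for both knockout sexes in Ugt2b38 and for knockout females in Hsd3b5.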

How the results depend on the processing

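Between wild-type females and males 235 genes passed, and the count stayed within 1.5 times of this under 14 of 22 alternatives. It was 109 with the 6 wild-type arrays alone (103 shared; 1337 at an unadjusted p under 0.05), 111 with a 2-fold minimum, 107 with the 3′ to 5′ covariate, 73 without females 1 and 2, and 58 without males 1 and 2. Leaving out 1 array at a time gave 112 to 393. For the difference between genotypes, 96 genes passed, 49 to 136 with 1 array left out, 148 with array weights, 169 with the clock covariate, 56 with the 3′ to 5′ covariate, 53 without females 1 and 2 and 42 without males 1 and 2. Cux2 turned from −0.02 to 1.34 with the mean of all probe sets and to 3.44 with its dimmest probe set, and Gas6 to −0.23 with its dimmest, where another probe set is used. With the dimmest probe set 139 of the 235 genes still passed and 15 changed sign. The cause of the other changes was not tested.

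The main fit treated the mice as unpaired. Deviations of same-numbered females and males correlated by 0.101, −0.255 and −0.232, and those of other female and male pairs by −0.127 to 0.299. With 3 mice per sex these values cannot decide whether replicate numbers pair the mice. With the replicate number as a block 189 genes passed between the sexes (179 shared), and 62 for the difference between genotypes. Precision is limited by the number of arrays, and signal near the array median limits what is known of dim genes.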
